A study of Mus musculus with 9 samples.

Results

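Genes that mark serotonergic neurons, *Tph2*, *Slc6a4*, *Fev*, *Htr1a* and *Maob*, were followed through RNA sequencing of mouse midbrain at E14.5. They were chosen by name. Each symbol matched 1 Ensembl identifier of the GRCm38 annotation, so that 5 of the 51912 genes in the table of normalized counts are described here. RNA was sequenced in 9 libraries, 3 for each genotype of the transcription factor *Nkx2.9*. The genotypes were wild-type (*Nkx2.9*+/+), heterozygous (*Nkx2.9*LacZ/+) and knock-out (*Nkx2.9*LacZ/LacZ), all on a C57Bl/6 background. The mutant allele is a germ-line replacement of exon 1 by LacZ, so it is carried by every cell and not by midbrain cells alone. Each library joined the cDNA of a pair of midbrains of one genotype, so a value is a mean over a pool and not over one embryo. The columns of the table carry a genotype and no replicate number, and they are named here by their place. Columns 1 to 3 are labelled knock-out, columns 4 to 6 heterozygous and columns 7 to 9 wild-type, and these words stand below for the libraries so labelled.

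The libraries held between 1692963 reads on genes (column 7) and 5942192 (column 8), with a median of 4921748. A normalized count is the read count divided by the size factor of its library, and 1 read was worth 2.59 normalized counts in column 7 and 0.70 in column 8. The targeted gene, *Nkx2-9*, had 3 to 6 reads in the knock-out columns, 0 to 7 in the heterozygous columns and 0 to 2 in the wild-type columns. It was thus not lower in the knock-out columns. The allele replaces its first exon only and the values do not separate its exons, so it does not check the labels here, and no other value checked them. Every direction given below thus rests on the column names alone, and would turn if those names were exchanged. The sample labels give the tissue as midbrain, while the title of the series speaks of cortical material. *Emx1* and *Neurod6*, genes of cortical neurons and their progenitors, had 0 to 14 and 8 to 96 reads per library. In normalized counts these were 0 to 16.3 and 20.7 to 72.3, while the means of the members described below were 3.31 to 28.4. The midbrain and isthmus genes *Pax5*, *En1* and *En2* had 340 to 1231, 106 to 438 and 136 to 487 reads (662 to 1229, 157 to 407 and 202 to 407 normalized counts).

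Serotonergic neurons make serotonin from tryptophan, store it in vesicles, release it and take it back up. In the embryo they arise in the ventral hindbrain, and the most rostral of them, which form the dorsal raphe nucleus, lie next to the isthmus, the border of midbrain and hindbrain. Their fibres run forward through the midbrain. *Tph2* encodes tryptophan hydroxylase 2, the enzyme that limits the rate of serotonin synthesis in neurons. *Slc6a4* encodes the serotonin transporter of the cell membrane, which ends the signal by reuptake. *Fev*, also known as Pet1, encodes an ETS-domain transcription factor that switches on the serotonergic programme, *Tph2* and *Slc6a4* included. *Htr1a* encodes a receptor that serves as an autoreceptor on serotonergic neurons and is also found on many of their target cells. *Maob* encodes monoamine oxidase B, an enzyme of the outer mitochondrial membrane that breaks down amines and that serotonergic neurons, astrocytes and some other cells make.

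Since *Fev* acts through ETS-type sites and GATA factors precede it in the same lineage, the start regions of the genes are shown with these letters marked. RefSeq (GRCm38.p6) held 4 of the 5 members, each with a window of 300 bases from 250 before to 50 after the start, printed 5′ to 3′ on the strand of the gene. Capitals mark GGAAG or its complement CTTCC (the core of ETS-type sites), AGATAA (a site for GATA factors) and TATAAA (the core of many basal promoters), searched on both strands. The windows are chr10:115184973-115185272 for *Tph2* (minus strand), chr11:76998347-76998646 for *Slc6a4* (plus), chr1:74885359-74885658 for *Fev* (minus) and chr13:105443443-105443742 for *Htr1a* (plus).
Tph2: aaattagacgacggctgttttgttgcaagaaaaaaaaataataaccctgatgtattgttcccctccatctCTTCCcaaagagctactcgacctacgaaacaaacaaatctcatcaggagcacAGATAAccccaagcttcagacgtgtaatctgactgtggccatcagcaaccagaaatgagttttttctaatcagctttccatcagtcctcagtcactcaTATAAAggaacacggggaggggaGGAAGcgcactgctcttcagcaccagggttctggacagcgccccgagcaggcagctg
Slc6a4: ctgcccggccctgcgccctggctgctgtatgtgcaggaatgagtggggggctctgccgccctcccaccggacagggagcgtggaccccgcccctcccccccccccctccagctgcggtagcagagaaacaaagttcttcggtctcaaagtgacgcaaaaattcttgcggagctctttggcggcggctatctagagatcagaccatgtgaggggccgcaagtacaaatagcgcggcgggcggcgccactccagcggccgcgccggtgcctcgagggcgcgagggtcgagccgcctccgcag
Fev: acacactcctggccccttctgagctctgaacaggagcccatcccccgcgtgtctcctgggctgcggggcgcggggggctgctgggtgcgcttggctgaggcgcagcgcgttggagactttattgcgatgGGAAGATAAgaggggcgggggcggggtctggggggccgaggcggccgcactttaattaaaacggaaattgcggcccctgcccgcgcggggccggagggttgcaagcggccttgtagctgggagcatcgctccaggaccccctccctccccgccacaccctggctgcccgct
Htr1a: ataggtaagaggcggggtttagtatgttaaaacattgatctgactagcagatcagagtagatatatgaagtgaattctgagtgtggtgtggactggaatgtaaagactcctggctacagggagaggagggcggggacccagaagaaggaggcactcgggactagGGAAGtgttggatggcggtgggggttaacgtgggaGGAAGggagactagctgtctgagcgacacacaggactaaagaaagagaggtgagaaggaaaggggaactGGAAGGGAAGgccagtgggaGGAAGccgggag

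The *Tph2* window held 2 matches of the ETS-type core, 1 AGATAA and 1 TATAAA, the last at bases 221 to 226 of the window. In the *Fev* window there was 1 GGAAG at bases 130 to 134 and 1 AGATAA at bases 133 to 138, and these matches overlap. *Htr1a* had 5 matches of GGAAG and none of the other motifs, and *Slc6a4* had 0 matches of any of them. Over all 32851 windows of this length, 71.4% held the ETS-type core, 11.2% AGATAA and 13.6% TATAAA, so the first is found in most genes. The share of GC was 47.3% in the *Tph2* window, 52.3% for *Htr1a*, 67.7% for *Slc6a4* and 69.0% for *Fev*, beside a median of 52.7% over all windows. These matches describe letters only, and no binding was measured.

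All 5 genes were detected at low levels. Over the 9 libraries there were 154 reads of *Tph2*, 256 of *Slc6a4*, 46 of *Fev*, 280 of *Htr1a* and 33 of *Maob*. The mean normalized counts of *Slc6a4* (28.4) and *Htr1a* (27.9) were higher than those of 63.7% and 63.5% of the 31636 genes with any read. For *Tph2* (16.9), *Fev* (5.08) and *Maob* (3.31) the shares were 59.0%, 46.4% and 41.4%. Comparisons were made with limma on log2(normalized count + 1) over 16993 genes, those whose mean normalized count reached 5. Of the members, 4 passed this minimum, and *Maob* was taken from the fit with no minimum. On this scale the change of a gene with few reads can be understated. It can also be larger than the group means give, or have another sign, as for *Maob* below.

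Levels were compared between genes as RPKM, the reads per kilobase of exon scaled to the reads on genes of the library. The order of these levels over the 9 libraries was *Slc6a4* (1.48 ± 0.68, SD, n = 9), *Htr1a* (1.47 ± 0.44), *Tph2* (1.38 ± 0.81), *Fev* (0.74 ± 0.40) and *Maob* (0.28 ± 0.24). The first 3 could not be ordered, since *Slc6a4* was above *Htr1a* in 5 of 9 libraries and *Htr1a* above *Tph2* in 6 of 9. *Tph2* was above *Fev* in 7 of 9, by 0.64 ± 0.76 (SD of the difference), which is also within the spread. *Fev* was above *Maob* in 8 of 9, by 0.46 ± 0.47. Within the wild-type columns the order began with *Tph2* (2.21 ± 0.71, SD, n = 3) and *Slc6a4* (2.0 ± 0.58), ahead of *Htr1a* (1.45 ± 0.45), but *Tph2* was above *Slc6a4* in 1 of these 3 columns only. Within the knock-out columns it began with *Htr1a* (1.26 ± 0.60) and *Slc6a4* (1.01 ± 0.50), ahead of *Tph2* (0.64 ± 0.31). In these 3 columns *Slc6a4* was above *Tph2* in 3 of 3. *Maoa*, the neighbour of *Maob* and the enzyme with the higher affinity for serotonin, was higher than every member at 5.38 ± 0.76 (SD, n = 9). *Tph1*, the tryptophan hydroxylase of pineal gland and gut, had 13 reads in all and a level of 0.068 ± 0.064.

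**Figure D1:**
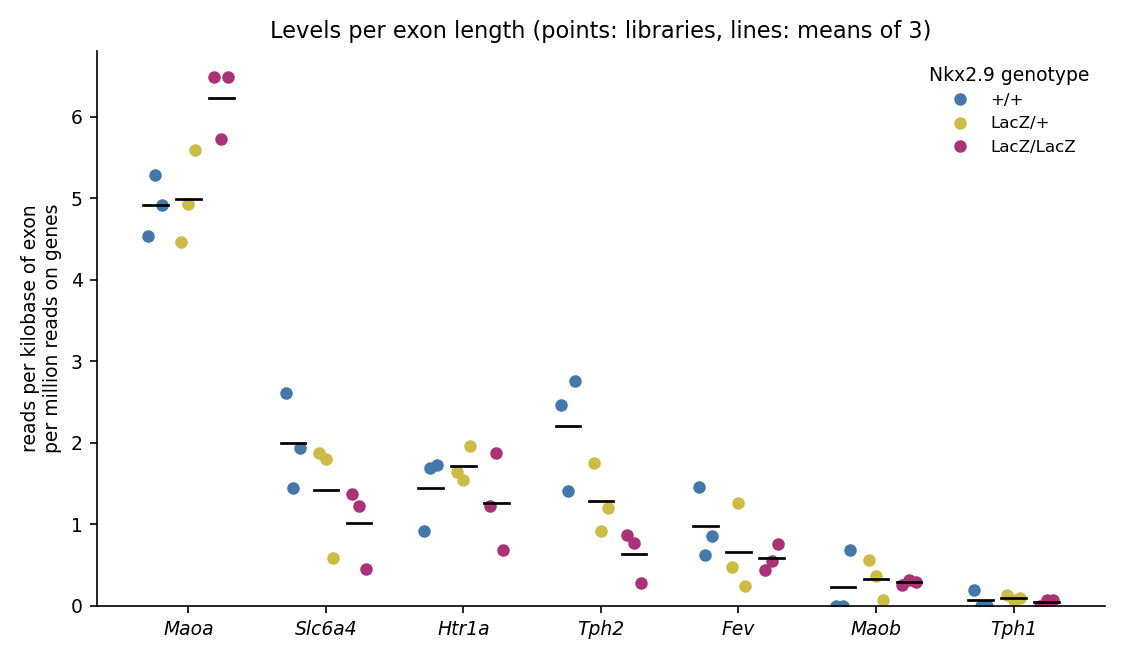
RPKM, the reads per exon length and library total (vertical axis), for the 5 members, *Maoa* and *Tph1*, with 1 point per library, coloured by genotype, and a line at each mean of 3. *Maoa* lies above all members in every column, *Slc6a4*, *Htr1a* and *Tph2* overlap each other, and *Tph1* is near 0.

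*Tph2* (ENSMUSG00000006764, chromosome 10, 115078641 to 115185022, minus strand) was lower in the columns labelled knock-out than in those labelled wild-type. Its normalized counts were 10.5, 9.15 and 3.44 in columns 1 to 3 (14, 10 and 4 reads), against 31.0, 16.8 and 33.9 in columns 7 to 9 (12, 24 and 46 reads). The highest knock-out value lay below the lowest wild-type value, a direction that rests on the unchecked column names. The heterozygous columns stood between with 21.2, 11.1 and 14.7 (13, 13 and 18 reads) and overlapped the wild-type range. They were above all 3 knock-out values, though the lowest (11.1) and the highest knock-out value (10.5) differed by less than the worth of 1 read. The means were 7.71 ± 3.76, 15.7 ± 5.11 and 27.2 ± 9.12 (SD, n = 3 each) in knock-out, heterozygous and wild-type libraries. Counting error alone would give SDs of 2.53, 4.32 and 6.24 at these depths.

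Knock-out and wild-type *Tph2* differed by -1.75 on the log2 scale, a ratio of 0.296 (standard error 0.46, 95% interval -2.73 to -0.78, limma, unadjusted p = 0.00155). With the adjustment over all genes tested the p was 1.00, so the difference did not pass. The exact permutation test gave a two-sided p of 0.1, the smallest that 3 libraries against 3 allow. Leaving out 1 library at a time kept the log2 fold change between -2.06 and -1.33 and the unadjusted p under 0.05 each time. Against the heterozygous libraries the log2 fold change was -1.01 (interval -1.98 to -0.03, unadjusted p = 0.0436, adjusted p = 0.999, exact permutation p = 0.1). That comparison rests on single libraries, since the unadjusted p was 0.216, 0.143, 0.0731 and 0.0543 without column 3, 4, 6 or 9, with log2 fold changes of -0.58, -0.78, -1.03 and -1.01. Heterozygous and wild-type libraries differed by -0.75 (interval -1.72 to 0.23, unadjusted p = 0.123, exact permutation p = 0.2), which missed the threshold. In RNA of whole midbrain, fewer cells of a type and less RNA per cell cannot be told apart.

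**Figure D2:**
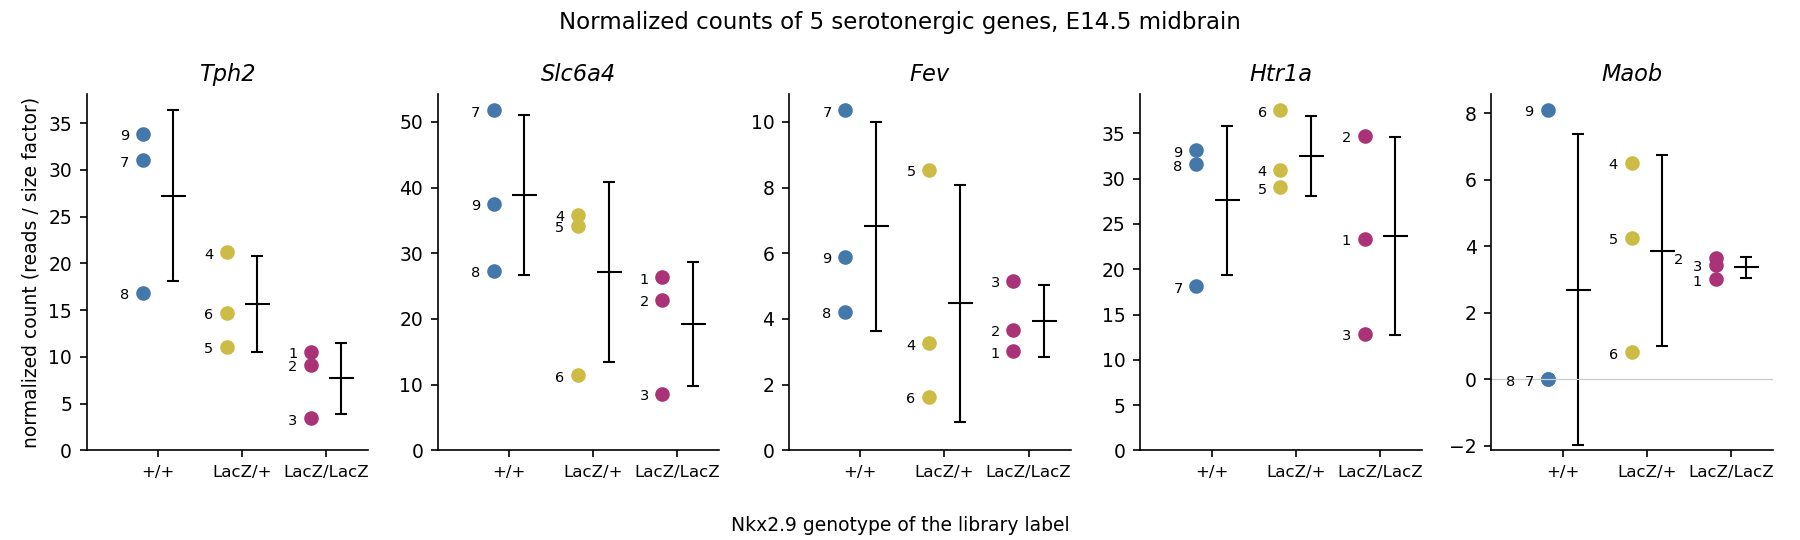
Normalized counts (vertical axis) of the 5 genes by *Nkx2.9* genotype, with 1 numbered point per library (its column) and a bar at mean ± SD (n = 3). For *Tph2* and *Slc6a4* the 3 knock-out points lie below all 3 wild-type points, while *Fev*, *Htr1a* and *Maob* overlap. The lower bar of *Maob* in wild-type passes below 0 because the SD exceeds the mean.

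*Slc6a4* (ENSMUSG00000020838, chromosome 11, 76998603 to 77032340, plus strand) showed the same order of genotype means with a wider spread. Columns 1 to 3 had 26.3, 22.9 and 8.59 (35, 25 and 10 reads) and columns 7 to 9 had 51.7, 27.4 and 37.5 (20, 39 and 51 reads). The groups did not overlap, but column 1 (26.3) and column 8 (27.4) differed by less than the worth of 2 reads. The heterozygous columns had 35.9, 34.2 and 11.4 (22, 40 and 14 reads) and overlapped both other genotypes. *Gm12343* lies on the opposite strand of *Slc6a4* without sharing its exons. The means were 19.3 ± 9.41, 27.1 ± 13.6 and 38.9 ± 12.2 (SD, n = 3 each) in knock-out, heterozygous and wild-type libraries.

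Knock-out and wild-type *Slc6a4* differed by -1.07 on the log2 scale (standard error 0.46, interval -2.05 to -0.08). The unadjusted p was 0.0354 and the adjusted p 1.00 (limma), and the exact permutation p was 0.1. Without column 3, 7 or 9 the log2 fold change was -0.60, -0.84 or -1.07 and the unadjusted p 0.210, 0.118 or 0.0676. With log2 *Xist* as a covariate it was -0.78 and the unadjusted p 0.133. The heterozygous columns differed from the wild-type ones by -0.61 (interval -1.60 to 0.37, unadjusted p = 0.205, exact permutation p = 0.4). The knock-out columns differed from the heterozygous ones by -0.45 (interval -1.44 to 0.53, unadjusted p = 0.342, exact permutation p = 0.5), by 0.02 without column 3, and by -0.97 with an unadjusted p of 0.0430 without column 6.

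The levels of the enzyme and the transporter were also compared from library to library. Over the 9 libraries Pearson's r of log2(normalized count + 1) of *Tph2* and *Slc6a4* was 0.77 (exact permutation p = 0.0142), which did not pass the adjustment over the 10 pairs of members (0.142). Spearman's rho was 0.85 (exact permutation p = 0.00607, adjusted 0.0607). Without the 2 libraries farthest from the median of *Tph2*, r was 0.51 (n = 7), over a narrower range of values. The deviations from the genotype means had r = 0.65, given as a description. None of the other 9 pairs had an unadjusted p under 0.05 in either measure. The libraries share genotype and depth, which both measures contain.

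Because the values of both genes come from the same libraries, the share of *Tph2* in the reads of *Tph2* and *Slc6a4* does not depend on the size factor. This measure was chosen after the values were seen. It was 28.6% in each of the 3 knock-out columns (14 of 49, 10 of 35 and 4 of 14 reads). The exact binomial 95% intervals, which cover counting error only, were 16.6 to 43.3, 14.6 to 46.3 and 8.39 to 58.1%. In columns 7 to 9 it was 37.5, 38.1 and 47.4% and in columns 4 to 6 it was 37.1, 24.5 and 56.3%. All 3 wild-type values were above the knock-out value, with a mean difference of -12.4 percentage points (knock-out minus wild-type, exact permutation p = 0.1, the smallest this design allows). The heterozygous columns lay on both sides of it. The shares rest on 14 to 97 reads per library, and the exact permutation test of 3 libraries against 3 could not pass the threshold.

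**Figure D3:**
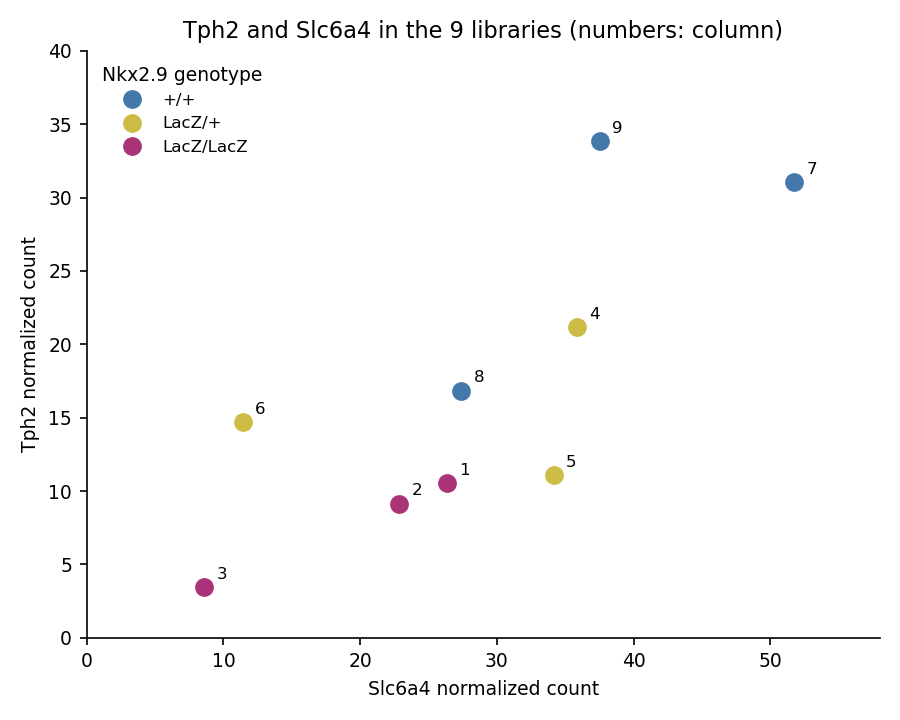
Normalized count of *Tph2* (vertical axis) against that of *Slc6a4* (horizontal axis), 1 point per library with its column number, coloured by genotype. Column 3 is lowest in both genes and columns 7 and 9 are highest in *Tph2*, while column 6 has little *Slc6a4* (11.4) for its *Tph2* (14.7).

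*Fev* (ENSMUSG00000055197, chromosome 1, 74881509 to 74885419, minus strand) had too few reads for a firm comparison. Its normalized counts were 3.01, 3.66 and 5.15 in columns 1 to 3, 3.26, 8.54 and 1.63 in columns 4 to 6 and 10.3, 4.21 and 5.89 in columns 7 to 9. The highest value, that of column 7, stands for 4 reads, and no library had more than 10. The genotypes overlapped. The log2 fold change was -0.61 for knock-out against wild-type libraries (interval -2.04 to 0.82, unadjusted p = 0.379, exact permutation p = 0.2). For heterozygous against wild-type libraries it was -0.64 (interval -2.07 to 0.78), and between the mutant genotypes 0.03 (interval -1.39 to 1.46). The first interval holds both no change and the change measured for *Tph2*.

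*Htr1a* (ENSMUSG00000021721, chromosome 13, 105443639 to 105448122, plus strand, a gene of 1 exon) had the most reads of the 5 and no difference past the threshold. Columns 1 to 3 had 23.3, 34.8 and 12.9 (31, 38 and 15 reads), columns 4 to 6 had 31.0, 29.0 and 37.5 (19, 34 and 46 reads) and columns 7 to 9 had 18.1, 31.6 and 33.1 (7, 45 and 45 reads). The lowest values were those of column 3, which was also lowest in *Tph2* and *Slc6a4*, and of column 7, which rests on 7 reads. From wild-type to knock-out the log2 fold change was -0.27 (interval -1.04 to 0.50, unadjusted p = 0.465, exact permutation p = 0.7) and turned to 0.09 without column 3. From wild-type to heterozygous it was 0.27 (interval -0.50 to 1.04, unadjusted p = 0.472, exact permutation p = 0.6), and -0.0011 without column 7. The knock-out columns differed from the heterozygous ones by -0.54 (interval -1.31 to 0.23, unadjusted p = 0.157, exact permutation p = 0.3), and without column 2 by -0.86 with an unadjusted p of 0.0415.

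*Maob* (ENSMUSG00000040147, chromosome X, 16709282 to 16817366, minus strand) was at the edge of detection. The 3 knock-out columns had 4 reads each, with normalized counts of 3.01, 3.66 and 3.44. The heterozygous columns had 4, 5 and 1 reads (6.52, 4.27 and 0.82), and the wild-type columns had 0, 0 and 11 reads, the last a normalized count of 8.10. A count of 0 allows up to 3 reads, which is a normalized count of 7.76 in column 7 and 2.11 in column 8. The means were 3.37 ± 0.33, 3.87 ± 2.87 and 2.70 ± 4.67 (SD, n = 3 each) in knock-out, heterozygous and wild-type libraries. On the log2 scale the 0 reads of columns 7 and 8 weigh more than in these means. Against the wild-type columns the log2 fold change was 1.06 in the knock-outs (interval -0.72 to 2.84, unadjusted p = 0.228, exact permutation p = 1.0, fit with no minimum). In the heterozygous columns it was 0.99 (interval -0.78 to 2.77, unadjusted p = 0.258, exact permutation p = 0.8). Column 9 holds all 11 wild-type reads, so that without it no fold can be given, since the 0 reads of column 7 allow a higher value than that of any knock-out column. Between the mutant genotypes the log2 fold change was 0.07 (interval -1.71 to 1.85).

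*Maoa* (chromosome X, 16619698 to 16687818, plus strand), which also breaks down serotonin, had 114, 98.8 and 114 normalized counts in columns 1 to 3 and 82.8, 91.9 and 87.6 in columns 7 to 9. The knock-out values lay above the wild-type values, but the log2 fold change of 0.31 missed the threshold (unadjusted p = 0.0866, exact permutation p = 0.1). Columns 4 to 6 had 78.2, 86.2 and 99.5 and overlapped both.

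Of the 5 members, 2 (*Tph2* and *Slc6a4*) had an unadjusted p under 0.05 between knock-out and wild-type libraries, and both were lower in the knock-outs. Over all genes tested in this comparison 441 of 16993, or 2.6%, had one. The values of the same 2 members did not overlap, beside 9.52% of all genes tested. Between heterozygous and wild-type libraries, 0 of 5 passed and 0 of 5 did not overlap (limma), where the shares of all genes were 2.78% and 6.91%. Between knock-out and heterozygous libraries it was 1 of 5, *Tph2*, in both counts, where the shares were 2.64% and 8.71%. The median log2 fold changes of the 5 members were -0.61, -0.61 and -0.45 in these 3 comparisons, beside 0.01, -0.01 and 0.02 over all genes tested. The comparisons share libraries, so these values are not independent of each other. With limma 0.0% of the genes, and so 0 of the 5 members, had an adjusted p under 0.05 in any comparison. edgeR on the recovered reads also called none, with 421, 372 and 451 genes at an unadjusted p under 0.05. DESeq2 called 1, *Gm23287* between heterozygous and wild-type libraries (named here after its value was seen), with 316, 264 and 323 genes at an unadjusted p under 0.05.

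**Figure D4:**
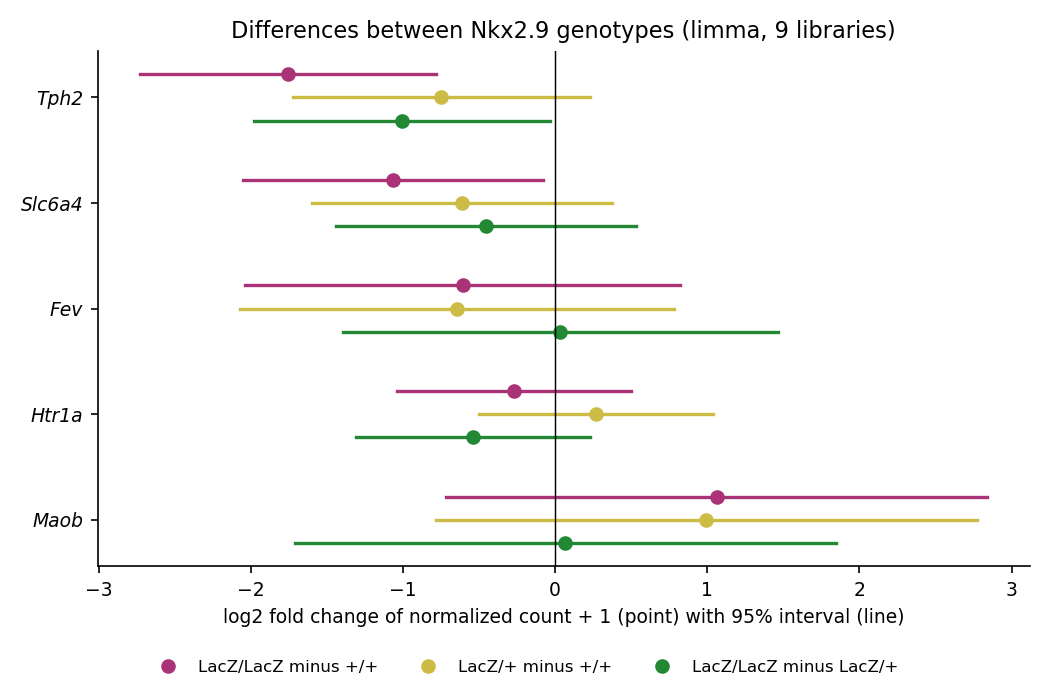
Log2 fold change of normalized count + 1 (horizontal axis) of the 5 members in the 3 comparisons, as points with 95% intervals from limma over 9 libraries. The intervals of *Tph2* in knock-outs against either other genotype and of *Slc6a4* in knock-outs against wild-type lie below 0, and all others include 0.

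The other genes of the serotonin system were read from fixed lists. Of 10 transcription factors that pattern or specify serotonergic neurons, all over the minimum count, 1 was lower in knock-out than in wild-type libraries at an unadjusted p under 0.05 and none was higher, beside 2.6% of all genes tested. This was *En1*, which is needed on both sides of the isthmus, with 180 against 274 normalized counts, a direction that again rests on the column names. Its log2 fold change was -0.60 (standard error 0.25), with an unadjusted p of 0.0277 and an adjusted p of 1.00. Its unadjusted p was 0.0973, 0.0524 and 0.111 without column 1, 7 or 9 (log2 fold changes -0.50, -0.59 and -0.47), and 0.111 with the *Xist* covariate (-0.44). *En2*, its paralogue, did not overlap either, with 227 to 293 normalized counts in knock-out and 323 to 358 in wild-type libraries, and its log2 fold change of -0.44 missed the threshold (unadjusted p = 0.0502, exact permutation p = 0.1). *Gata3*, a factor of the serotonergic lineage and the highest of the list, had 482 to 554 normalized counts in knock-out and 465 to 565 in wild-type libraries. *Gata2* (0.02), *Lmx1b* (0.01) and *Insm1* (-0.05), which act with or ahead of *Fev*, had log2 fold changes near 0. These genes are also used by other midbrain neurons. The list's median log2 fold change was -0.05, and in the other comparisons 0 of 10 passed (limma), beside 2.78% of all genes between heterozygous and wild-type and 2.64% between knock-out and heterozygous libraries.

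Among 13 genes of serotonin synthesis, transport and breakdown, 10 were over the minimum count. *Gch1*, which encodes the first enzyme in the making of tetrahydrobiopterin, the cofactor of tryptophan hydroxylase and of tyrosine hydroxylase, was lower in both mutant genotypes. Columns 1 to 3 had 21.8, 17.4 and 10.3 normalized counts, columns 4 to 6 had 13.04, 16.2 and 15.5 and columns 7 to 9 had 44.0, 23.2 and 33.9. Neither mutant group overlapped wild-type. Against the wild-type columns the log2 fold change was -0.999 in the knock-outs (unadjusted p = 0.0148, exact permutation p = 0.1) and -1.08 in the heterozygous columns (unadjusted p = 0.00927, exact permutation p = 0.1). The adjusted p was 1.00 for both. The first was -0.71 (unadjusted p = 0.0806) without column 3 and -0.79 (unadjusted p = 0.0633) without column 7. *Pts*, the next enzyme of the same pathway, was higher in knock-out than in heterozygous libraries by 0.45 on the log2 scale, with 133 against 97.7 normalized counts (unadjusted p = 0.0274, adjusted p = 0.999, exact permutation p = 0.1). Without column 1 or 4 its log2 fold change was 0.38 or 0.32, with an unadjusted p of 0.0990 or 0.0880.

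*Ddc*, which encodes the decarboxylase that completes serotonin and dopamine, and *Slc18a2*, which encodes the vesicular transporter of all monoamine neurons, did not pass in any comparison. *Ddc* had mean normalized counts of 143, 163 and 152 in knock-out, heterozygous and wild-type libraries, and *Slc18a2* had 126, 126 and 138. Unlike *Tph2* and *Slc6a4*, both are shared with dopaminergic neurons. *Slc29a4*, a low-affinity monoamine transporter and the highest of the list, had 298 normalized counts in knock-out and 317 in wild-type libraries. In all, at an unadjusted p under 0.05, 1 of 10 was lower and 0 higher in the knock-outs than in wild-type, 1 was lower and 0 higher in the heterozygous columns, and 1 was higher and 0 lower in the knock-outs than in the heterozygous columns. Over all genes tested the shares with such a p, in either direction, were 2.6%, 2.78% and 2.64%.

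**Figure D5:**
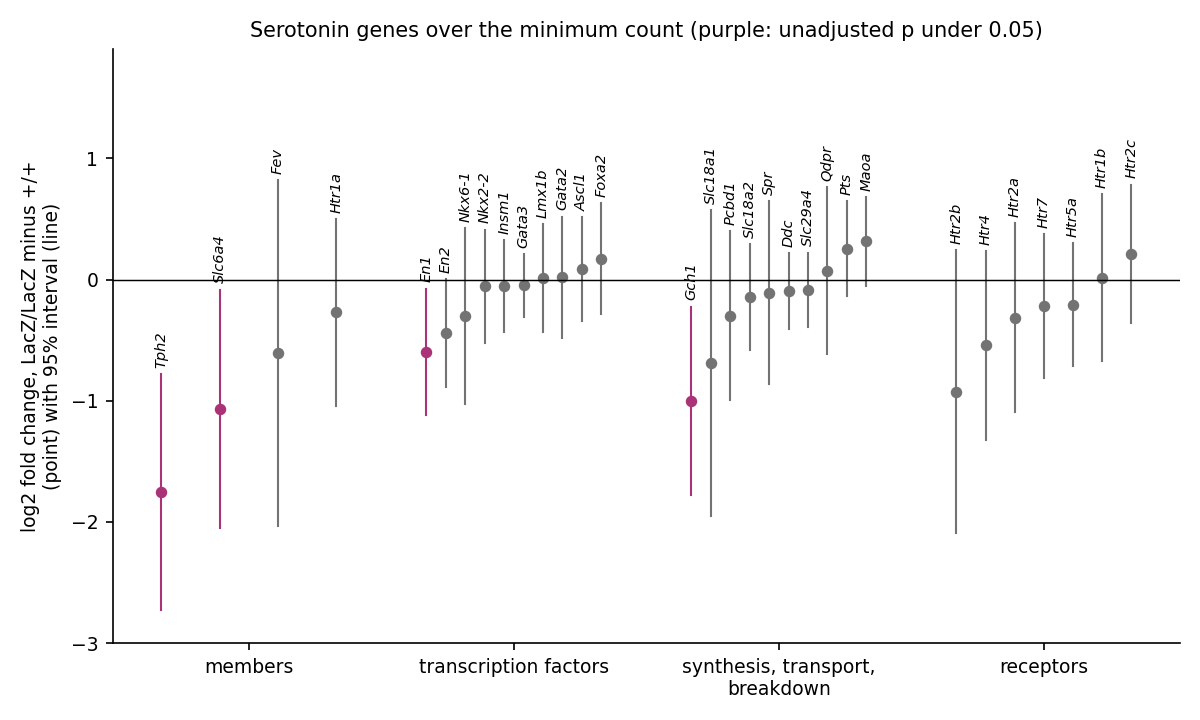
Log2 fold change (vertical axis) between knock-out and wild-type libraries with 95% intervals for the serotonin genes over the minimum count, in 4 groups along the horizontal axis, purple where the unadjusted p was under 0.05. Purple marks *Tph2*, *Slc6a4*, *En1* and *Gch1*, all below 0, and most other points lie within 0.5 of 0.

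Of 13 further serotonin receptors, 7 were over the minimum count. None of these passed between knock-out and wild-type libraries (limma, unadjusted p of at least 0.112), beside 2.6% of all genes tested. *Htr5a*, the highest, had 45.1 against 51.5 normalized counts. *Htr2b* was lower in heterozygous than in wild-type libraries, with 5.82 against 17.97 normalized counts and a log2 difference of -1.67 (unadjusted p = 0.00812, adjusted p = 1.00, exact permutation p = 0.1). Without column 4, which had the lowest value, it was -1.08 with an unadjusted p of 0.0413. Its exons overlap those of *Psmd1* on the opposite strand, and since the strand setting of the counting is not given, reads of the 2 genes may be mixed. *Htr7* was lower in knock-out than in heterozygous libraries, with 30.9 against 46.6 normalized counts and a log2 difference of -0.61 (unadjusted p = 0.0457, adjusted p = 0.999, exact permutation p = 0.1). Its unadjusted p ran from 0.0669 to 0.151 without column 2, 3, 4, 5 or 6. Below the minimum, *Htr5b* had 0 reads in columns 1 to 3, 2, 1 and 4 in columns 4 to 6 and 2, 3 and 3 in columns 7 to 9. No fold is given for it, since a count of 0 allows 3 reads per library. *Htr1d* had 0, 7 and 5 reads in columns 1 to 3, 2, 8 and 4 in columns 4 to 6 and 0, 0 and 4 in columns 7 to 9. *Htr3b* had 5 reads in all.

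Markers of other cells and regions were summed for each library. Which part of the dissected tissue the reads of the members came from was not measured. For the isthmus and rostral hindbrain (8 genes, 5 over the minimum), the sums were 833 to 1220 normalized counts in the knock-outs, 833 to 1460 in the heterozygous columns and 935 to 1124 in wild-type. These ranges overlap, and 0 of the 5 passed in any comparison (limma), beside 2.6%, 2.78% and 2.64% of all genes tested. *Pax5*, the highest, had 871 ± 184 in the knock-outs and 848 ± 79.4 in wild-type (SD, n = 3 each). Hox genes, which mark the hindbrain behind its first segment, had 26 reads in all 9 libraries over 39 genes. The sums of 5 dopaminergic markers were 504 to 561, 511 to 688 and 482 to 536 in the same order. *Pitx3* was lower in knock-out than in wild-type libraries, with 21.9 against 35.4 normalized counts and a log2 difference of -0.71 (unadjusted p = 0.0341, adjusted p = 1.00, exact permutation p = 0.1). For *Pitx3* the unadjusted p was 0.130, 0.0883, 0.0815 and 0.0668 without column 1, 2, 8 or 9. Its exons overlap those of *Elovl3* on the opposite strand, so reads of both genes may be mixed. *Nr4a2*, the highest of these markers, had 315 to 388 normalized counts in the knock-outs and 259 to 357 in wild-type.

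In the choroid plexus list (5 genes), 1 of the 3 over the minimum, *Kl*, did not overlap between knock-out and wild-type libraries. The share over all genes tested was 9.52%. *Clic6*, under the minimum, did not overlap either, with 0.91 to 1.72 against 3.51 to 5.17 normalized counts (1 to 2 and 2 to 5 reads). The sums of the list were 18.1 to 27.5 in the knock-outs and 28.8 to 75.0 in wild-type, with no overlap, and 16.3 to 35.9 in the heterozygous columns. Without *Kl* they were 7.53 to 19.2 in the knock-outs and 14.7 to 44.0 in wild-type, which overlap. *Kl* had 7.90 against 20.4 normalized counts, a log2 difference of -1.25 (unadjusted p = 0.0191, adjusted p = 1.00, exact permutation p = 0.1). Its unadjusted p was 0.0853 and 0.0886 without column 2 or 7. *Ttr*, the defining gene of this tissue, had 3 to 10 reads per library. The part of this list in the result for *Tph2* was not tested. Sums of radial glia (2722 to 3442 in all 9 libraries), endothelium (471 to 575) and erythroid cells (1478 to 2246) overlapped between the genotypes. On these lists 0 of 17 genes passed in any comparison (limma), beside 2.6%, 2.78% and 2.64% of all genes tested. *Vim*, *Kdr* and *Hba-a1* were the highest of these lists, at 1009, 224 and 543 normalized counts over 9 libraries.

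Column 4 (heterozygous) stood apart in regional markers. It had 17 reads of *Slc6a2*, the noradrenaline transporter, against 0 to 4 elsewhere, 0 reads of *Gbx2* against 17 to 62, and an *En1* value of 407 against 157 to 322. *Tph2* (21.2) and *Slc6a4* (35.9) were the highest of their genotype in this column. Without it, the log2 fold change of *Tph2* between heterozygous and wild-type libraries was -0.98, with an unadjusted p of 0.0711, and that of *Slc6a4* -0.89, with an unadjusted p of 0.0915.

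Sex-linked genes were read for each library as well. *Xist*, the RNA of the silenced X chromosome in females, had 4607 to 5182 normalized counts in the knock-outs. Columns 6, 7 and 8 had 2929, 4342 and 2580, and columns 4, 5 and 9 had 79.9 or less. The sum of 4 Y-linked genes was 0 to 2.26 in columns 1 to 3, 606, 1058 and 3.26 in columns 4 to 6 and 0, 505 and 1075 in columns 7 to 9. All 4 Y-linked genes were lower in the knock-outs at an unadjusted p under 0.05 against either other genotype, and none passed between heterozygous and wild-type libraries (limma). *Xist* passed between knock-out and heterozygous libraries only, and its unadjusted p was 0.116 and 0.139 in the comparisons with wild-type. The knock-out pools thus had female marks alone, like columns 6 and 7, and the part of sex in the differences with the knock-outs was not tested beyond the following values. Among these 5 libraries *Tph2* was 3.44 to 10.5 in the knock-outs, 14.7 in column 6 and 31.0 in column 7, and *Slc6a4* was 8.59 to 26.3, 11.4 and 51.7. The other genotypes have 1 library each there, and the difference among these 5 was not tested. With log2 *Xist* as a covariate over all 9 libraries the log2 fold change of *Tph2* from wild-type to knock-out was -1.70, with an unadjusted p of 0.00535.

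The genes whose normalized counts followed those of a member most closely over the 9 libraries were listed as a description, by Pearson's r over these libraries among 16993 genes. For *Tph2* they were *Coq9* (r = 0.94), 1 identifier without a symbol (0.94), *Evx1os* (0.93), *Atp5d* (0.93) and *Lhpp* (0.93). *Slc6a4* was followed most closely by *B2m* (0.95), *Gm16485* (0.95), *Anapc13* (0.94), *Igsf11* (0.93) and *Serpinh1* (0.92). For *Maob* they were *Tmco3* (0.96), *Poc1a* (0.95), *Hebp1* (0.95), *Hist1h1c* (0.94) and *Sec14l2* (0.94). With 33 reads of *Maob* in all and 0 in columns 7 and 8, these values rest on counts near the floor. Each list holds the highest of 16993 values of r over 9 libraries, and no r was tested. No gene was in more than 1 of these lists, and no gene of the serotonin lists was among them. The libraries share depth and genotype, and *Evx1os* is an antisense gene whose reads may include those of the opposite strand.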

How the data were processed

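RNA of dissected E14.5 midbrains was sequenced in 9 libraries. The article's methods, followed here, give depletion of ribosomal RNA, alignment with HISAT2 to GRCm38 (mm10) and counting with featureCounts, while the sample labels name another RNA isolation and an mRNA protocol. The versions of these tools, the annotation release and the strand setting are not given in the sources used here. The authors deposited a signal per gene and library, the read count divided by a DESeq2 size factor, and 3 tables of their own comparisons (fold changes and p-values), which were not used. All 210686 values above 0 were whole multiples of 1 read within 0.01 (100%), which gave the read counts. Gene names came from the GRCm38 annotation, which held 51719 of the 51912 identifiers (193 not matched).

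The main comparison used limma 3.58.1 (R 4.3.3) on log2(normalized count + 1) with eBayes and a trend, fitting all 9 libraries together. Its two-sided p-values were adjusted by Benjamini and Hochberg over the 16993 genes whose mean reached 5. Exact permutation tests of 3 against 3 and correlations were computed with scipy 1.17.1 in Python 3.11.15. Alternatives were edgeR 4.0.16 and DESeq2 1.42.0 on the recovered reads, other pseudocounts, minimums and scaling, a covariate and leaving out libraries. The limma and edgeR comparisons were tested on simulated reads, and the DESeq2 comparison was not. Intervals are at 95%. With 3 libraries per genotype and 33 to 280 reads per member in all, counting error is a large part of the spread. P-values measure the spread between libraries.

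The members, lists and tests were chosen with earlier results of these data known. Genes named are the members, the genes of each list with an unadjusted p under 0.05 in any comparison or the highest mean, and the 5 genes most like *Tph2*, *Slc6a4* and *Maob*. Genes of background interest were added after their values were seen. They are *Tph1*, *Maoa*, *Ddc*, *Slc18a2*, *Gata2*, *Lmx1b*, *Insm1*, *En2*, *Ttr*, *Clic6*, the markers of cortex and midbrain and those of column 4. Levels of Y-linked genes are given as a sum. The list of noradrenergic markers is not reported here as a sum.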

Additional observations from a re-analysis of the deposited data

How the results depend on the processing

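For knock-out against wild-type, the log2 fold change of *Tph2* kept its direction and an unadjusted p under 0.05 in all 18 alternatives. For *Slc6a4* it did so in 14, and the p was above 0.05 with the *Xist* covariate (-0.78) and without column 3, 7 or 9. *Maob* reached 1.99 with the *Xist* covariate, where its unadjusted p was under 0.05. At a minimum of 20, *Tph2*, *Fev* and *Maob* fell below it and were taken from the fit with no minimum. For these genes both settings are thus the same fit, though counted as separate alternatives. For knock-out against heterozygous, *Tph2* lost its unadjusted p under 0.05 in that fit (-1.01). It also lost it with edgeR (-0.94), DESeq2 (-0.97), only the 2 genotypes (-1.01) and the *Xist* covariate (-0.89). This left 0 members with one in each of these settings. In that comparison the direction turned for *Slc6a4* with the *Xist* covariate (0.11), for *Fev* with a pseudocount of 5 (-0.025), edgeR (-0.22) and DESeq2 (-0.22), for *Maob* with the same (-0.029, -0.062 and -0.13) and for the Y-linked gene *Uty* with the *Xist* covariate (0.50). The causes were not tested.

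Leaving out 1 library at a time gave these ranges. Against wild-type, knock-out libraries had -1.35 to -0.60 for *Slc6a4*, -0.59 to 0.091 for *Htr1a* and 0.53 to 2.12 for *Maob*, with 1 to 2 members at an unadjusted p under 0.05, and heterozygous libraries had -0.0011 to 0.42 for *Htr1a* and 0.46 to 2.06 for *Maob*, with 0 to 1 such members and 0 to 2 without overlap. Between the mutant genotypes the ranges were -1.27 to -0.58 for *Tph2*, -0.97 to 0.017 for *Slc6a4*, -0.39 to 0.54 for *Fev*, -0.86 to -0.18 for *Htr1a* and -0.53 to 0.50 for *Maob*, with 0 to 2 such members and 1 to 3 without overlap. With 2 libraries against 3, 17.3 to 23.1%, 14.0 to 21.1% and 15.7 to 21.8% of all genes tested did not overlap in the 3 comparisons. The upper values of *Maob* against wild-type, without column 9, are set by the pseudocount, since no wild-type read is left.

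Genes with an unadjusted p under 0.05 numbered 441, 473 and 449 (knock-out and heterozygous against wild-type, then against each other). They numbered 1135, 1137 and 1132 with no minimum and 263, 242 and 288 with a minimum of 20. For the second, DESeq2 gave 264, only the 2 genotypes 280 and the *Xist* covariate 298. Without single libraries they were 283 to 835, 376 to 936 and 293 to 741. No paired analysis was possible because the columns carry no replicate number. Few reads limit *Fev* and *Maob* most.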
